A study of Mus musculus with 6 samples.

Results

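The genes described here are 4 Ifit genes (Ifit1, Ifit2, Ifit3 and Ifit3b) and the 5 genes of ISG15 conjugation: the modifier Isg15, its activating enzyme Uba7, its conjugating enzyme Ube2l6, its ligase Herc6 and its protease Usp18. They were chosen by name, with earlier results of these data known, and the count tables held all 9, each under 1 Ensembl identifier, among 35275 gene rows. RNA came from whole, PBS-perfused lungs of Balb/c mice that had been given 250000 cells of the Balb/c mammary carcinoma line 4T1 by vein and were taken 7 days later. The WT group (3 libraries) had received 4T1.WT cells and the KO group (3 libraries) 4T1.PD-L1 KO cells, so KO names the injected tumour cells and not the host. No lung without injected tumour cells was analysed here. The sources used here do not give whether the KO line is 1 clone or whether each library is 1 animal. The comparison asks how RNA of these genes in the tumour-bearing lung differs when the injected cells lack PD-L1. Lack of PD-L1, other differences between the injected lines and tumour load cannot be told apart.

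Ifit proteins are built from tetratricopeptide repeats and are made in large amounts when cells sense interferon or viral RNA. Ifit1 binds RNA whose cap lacks the 2′-O-methyl mark and blocks its translation, while Ifit2 and Ifit3 bind Ifit1 or each other and modulate that activity. ISG15 is a ubiquitin-like protein that Uba7 activates, Ube2l6 carries and, in mice, mainly Herc6 attaches to target proteins, and Usp18 removes it again. Usp18 also binds the interferon receptor subunit IFNAR2 and damps further signalling. The promoters of such genes classically hold the interferon-stimulated response element (ISRE), which is bound by the interferon-activated complex ISGF3.

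The Ifit genes described here lie in a cluster on the plus strand of chromosome 19 (GRCm38, counted from 1). Ifit2 lies at 34550694 to 34576419, Ifit3 at 34583531 to 34588731, Ifit3b at 34607970 to 34613401 and Ifit1 at 34640871 to 34650009. The ISG15 genes lie apart from each other. Isg15 is on the minus strand of chromosome 4 (156199424 to 156200818), and the others are on plus strands: Uba7 on chromosome 9 (107975505 to 107984060), Ube2l6 on chromosome 2 (84798828 to 84810335), and Herc6 (57581000 to 57664632) and Usp18 (121245906 to 121270917) on chromosome 6. All are annotated as protein-coding genes.

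Promoter windows (RefSeq, GRCm38.p6; 250 bases before to 50 after each start) were found for 8 of the 9 genes, all but Usp18. The core of the ISRE, searched on both strands as GAAA, any 2 bases and GAAA again, was present in 4 of them. They are shown because the 4 genes share these letters: the 200 bases before each RefSeq start, read 5′ to 3′ on the gene's own strand, with matches in capitals. The windows are chr19:34640689-34640888 for Ifit1, chr19:34583329-34583528 for Ifit3, chr19:34607757-34607956 for Ifit3b (all plus strand) and chr4:156200819-156201018 for Isg15 (minus strand). They are reference sequence and not that of the Balb/c mice.
Isg15: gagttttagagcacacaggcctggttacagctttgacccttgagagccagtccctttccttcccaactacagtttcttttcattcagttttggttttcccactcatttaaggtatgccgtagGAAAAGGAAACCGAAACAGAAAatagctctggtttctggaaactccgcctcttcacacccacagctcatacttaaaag
Ifit1: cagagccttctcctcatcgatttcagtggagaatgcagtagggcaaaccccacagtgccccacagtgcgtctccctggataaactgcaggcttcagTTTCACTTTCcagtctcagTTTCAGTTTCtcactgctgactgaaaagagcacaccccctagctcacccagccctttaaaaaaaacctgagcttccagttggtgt
Ifit3: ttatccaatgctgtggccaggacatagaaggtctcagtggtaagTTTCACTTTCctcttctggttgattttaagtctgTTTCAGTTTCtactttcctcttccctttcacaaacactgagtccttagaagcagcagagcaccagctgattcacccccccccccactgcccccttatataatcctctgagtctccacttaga
Ifit3b: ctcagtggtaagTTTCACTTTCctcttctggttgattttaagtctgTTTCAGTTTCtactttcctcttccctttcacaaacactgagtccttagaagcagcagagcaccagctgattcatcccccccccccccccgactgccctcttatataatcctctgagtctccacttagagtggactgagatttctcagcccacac

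In Isg15 the capitals are 3 overlapping matches that begin 78, 72 and 66 bases before the start, read on the gene's own strand. In Ifit1 there are 2 separate matches, on the opposite strand, whose printed left ends are 104 and 85 bases before the start. The Ifit3 and Ifit3b windows align with 259 identical and 1 mismatched position (99.6% identity, gaps aside), and both matches of each lie in a shared run of 169 identical bases. Ifit2 (2 windows), Uba7, Ube2l6 and Herc6 held no match to these letters. Of 27025 genes with a window, 3.99% held a match. The gamma-activated site, searched as TTCNNNGAA, which reads the same on both strands, was found in 1 of the 8 genes, Ifit2, and in 9.55% of all genes. These are matches of letters in a window, not measured binding sites.

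RNA of the ISG15 and Ifit genes was higher in KO lungs for 7 of the 9 genes: Ifit1, Ifit2, Ifit3, Uba7, Ube2l6, Herc6 and Usp18 rose (edgeR quasi-likelihood test, adjusted p below 0.05 over 15191 genes). Their fold changes ran from 1.60 for Uba7 to 2.96 for Ifit1. Isg15 and Ifit3b did not pass. None of the 9 fell by edgeR, DESeq2 or limma-voom, nor at an unadjusted p under 0.05 (0 genes). Over all genes 1.45% were called: 1.12% higher (170 of 15191) and 0.336% lower. An unadjusted p under 0.05, in either direction, was found for 2221 of the 15191 genes. The median log2 fold change was 0.94 over the 9 genes and 0.01 over all genes tested. Libraries held 14711459 to 16932114 counts. Values below are CPM, that is counts scaled to library size (TMM-adjusted), with mean ± SD over 3 libraries per group. In whole-organ RNA, more cells that express a gene and more of its RNA per cell cannot be told apart.

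**Figure D1:**
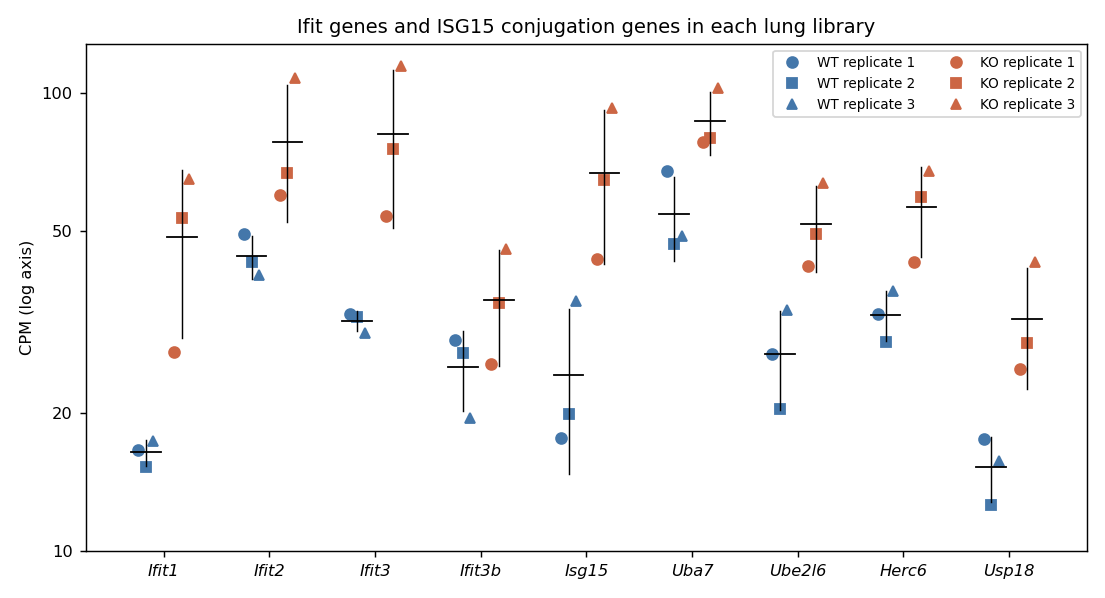
Level of each gene in each library in CPM (log axis), with blue for WT and orange for KO lungs, symbols for the replicate number, and black lines for the mean ± SD of each group. In 8 genes every KO library lies above every WT library, Ifit3b is the exception, and in each gene KO replicate 1 is the lowest and KO replicate 3 the highest KO library.

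The modifier comes first. Isg15 was at 17.7, 19.9 and 35.1 CPM in WT replicates 1 to 3 and at 43.5, 64.8 and 92.9 CPM in KO replicates 1 to 3. The groups did not overlap, and WT replicate 3 stood above the other WT libraries. The highest WT library was 1.99 times the lowest, against at most 1.65 times in the other 8 genes. The means were 24.2 ± 9.49 and 67.1 ± 24.8 CPM (SD, n = 3). The log2 difference of 1.47 ± 0.33 (SE; 95% interval 0.71 to 2.23) was the second in size among the 9, but did not pass (edgeR adjusted p = 0.0829). Without WT replicate 3 it was 1.83 (adjusted p = 0.0131), and without KO replicate 1 it was 1.70 (adjusted p = 0.00537). With any of the other 4 libraries left out it was 1.16 to 1.49 and did not pass (adjusted p 0.161 to 0.287). It also passed with all 6 libraries by DESeq2 (adjusted p = 0.0289) and limma-voom (adjusted p = 0.028).

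The enzymes that attach ISG15 rose together. Uba7, the activating enzyme, was at 67.5, 46.8 and 48.8 CPM in WT and 78.2, 79.7 and 103 CPM in KO replicates 1 to 3. The groups did not overlap, with KO replicate 1 at 1.16 times the highest WT library. Its log2 fold change, 0.68 ± 0.16, was the smallest among the 7 called genes, and the call was close to the threshold (edgeR adjusted p = 0.0487). Ube2l6, the conjugating enzyme, was at 26.9, 20.4 and 33.5 CPM in WT and 42.0, 49.3 and 63.8 CPM in KO replicates 1 to 3. Again no KO library was as low as a WT library, and the mean rose from 26.9 ± 6.58 to 51.7 ± 11.1 CPM (log2 fold change 0.94 ± 0.19, edgeR adjusted p = 0.0325). Herc6, the ligase, was at 32.9, 28.7 and 36.9 CPM in WT and 42.8, 59.4 and 67.5 CPM in KO replicates 1 to 3. The 3 KO libraries were higher throughout, by 0.79 ± 0.17 on the log2 scale (edgeR adjusted p = 0.0405).

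The protease rose as well. Usp18, which takes ISG15 off its targets, was at 17.5, 12.6 and 15.7 CPM in WT and 25.0, 28.5 and 42.9 CPM in KO replicates 1 to 3. Its lowest KO library was 1.42 times its highest WT library. The mean rose from 15.3 ± 2.48 to 32.1 ± 9.47 CPM, or by 1.07 ± 0.22 on the log2 scale (edgeR adjusted p = 0.0291).

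Among the Ifit genes, Ifit1 changed most. It was at 16.6, 15.3 and 17.4 CPM in WT and at 27.2, 53.5 and 65.1 CPM in KO replicates 1 to 3. The WT libraries lay within 1.14 times of each other, while KO replicate 3 was 2.39 times KO replicate 1, the widest KO spread of the 9 genes. The mean rose from 16.4 ± 1.08 to 48.6 ± 19.4 CPM (log2 fold change 1.57 ± 0.26, edgeR adjusted p = 0.0146). Ifit3 was at 32.9, 32.5 and 30.0 CPM in WT and 54.1, 75.7 and 114.8 CPM in KO replicates 1 to 3. Here too the WT libraries were close together, and KO replicate 1 was already 1.64 times the highest of them. The log2 fold change was 1.36 ± 0.22 (edgeR adjusted p = 0.0151). Ifit2 was at 49.2, 42.7 and 40.0 CPM in WT and 60.0, 67.0 and 107.9 CPM in KO replicates 1 to 3. KO replicate 3 stood apart from the other KO libraries. The log2 fold change of Ifit2 was 0.83 ± 0.19 (edgeR adjusted p = 0.0459), and 0.53 without KO replicate 3 (adjusted p = 0.17).

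Ifit3b, the near copy of Ifit3, was the exception. It was at 28.9, 27.1 and 19.5 CPM in WT and 25.6, 34.8 and 45.7 CPM in KO replicates 1 to 3. The groups overlapped, with KO replicate 1 below WT replicates 1 and 2. The log2 difference was 0.49 ± 0.21 (95% interval 0.04 to 0.94, edgeR adjusted p = 0.296), so a change of 1.92-fold lies inside the interval. The ratio of Ifit3b to Ifit3 CPM was 0.788 ± 0.122 in WT and 0.444 ± 0.0404 in KO lungs, with no overlap (WT 0.65 to 0.879, KO 0.398 to 0.474). The exact two-sided permutation test of this ratio gave p = 0.1, the smallest that 3 against 3 libraries allow, and the ratio was chosen after its values had been seen. Of the distinct 50-base stretches of their annotated transcripts, 51.2% of those of Ifit3 also occur in Ifit3b and 44.5% of those of Ifit3b in Ifit3. The sources used here do not give how reads from these stretches were counted, so the split between both genes is uncertain. With their counts summed, the pair rose by 1.04 on the log2 scale (edgeR adjusted p = 0.0412).

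The spread among KO lungs had 1 order in all 9 genes: KO replicate 3 was highest, KO replicate 2 next and KO replicate 1 lowest. Of all genes tested, 19% had this order. The 9 genes are not independent of each other, and replicate numbers carry no order of their own. The KO libraries exceeded every WT library in 8 of the 9 genes, against 10.3% of all genes. Averaged over the 9 genes, log2 CPM relative to the WT mean was 0.58, 0.97 and 1.42 in KO replicates 1 to 3 and 0.07, −0.14 and 0.06 in WT replicates 1 to 3.

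**Figure D2:**
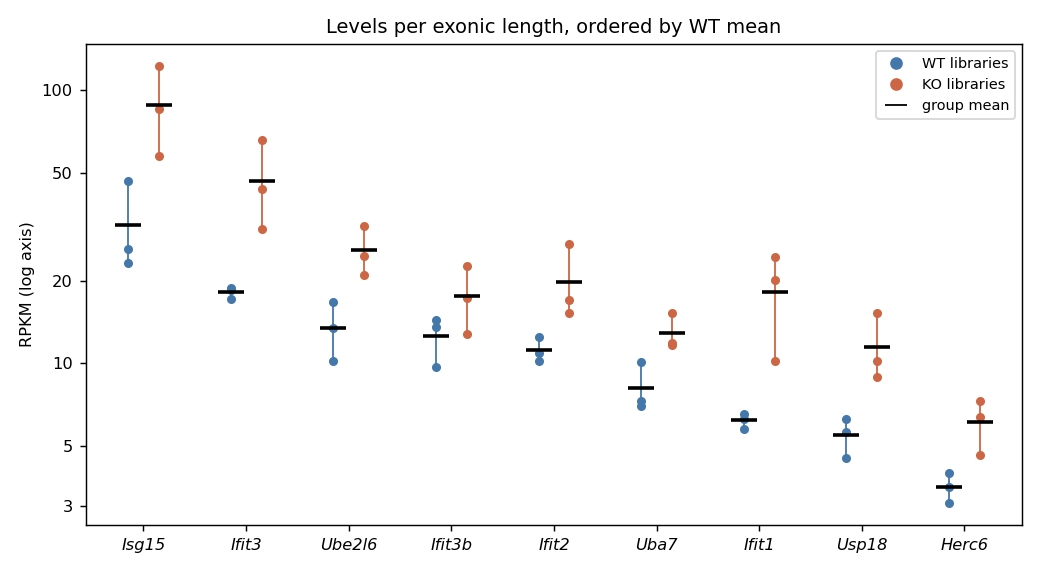
CPM per kilobase of exonic length (RPKM, log axis) of each gene in each library, with WT in blue, KO in orange, a vertical line for the range and a black dash for the group mean, ordered by WT mean. Isg15 is highest and Herc6 lowest in both groups, and most neighbours overlap in KO lungs.

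Levels of different genes were compared per exonic length (RPKM). In WT lungs the order was Isg15 (32.0 ± 12.6 RPKM), Ifit3 (18.2 ± 0.904), Ube2l6 (13.5 ± 3.30), Ifit3b (12.6 ± 2.51), Ifit2 (11.2 ± 1.20), Uba7 (8.13 ± 1.71), Ifit1 (6.19 ± 0.406), Usp18 (5.48 ± 0.888) and Herc6 (3.53 ± 0.447). Ube2l6 and Ifit3b, Ifit3b and Ifit2, and Ifit1 and Usp18 overlapped in WT, and the other neighbours did not. In KO lungs Isg15 (88.7 ± 32.8 RPKM), Ifit3 (46.7 ± 17.6) and Ube2l6 (25.9 ± 5.56) kept the top 3 places and Herc6 (6.09 ± 1.36) the last. Ifit1 moved from place 7 to place 5, at 18.3 ± 7.31 RPKM. Every pair of KO neighbours overlapped except Usp18 and Herc6. The order depends on the length used: by the longest transcript, Uba7 took place 4 in both groups and Ifit1 place 9 in WT lungs.

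Relative to Isg15 in the same library, the RPKM of Uba7 was 0.285 ± 0.138 in WT and 0.156 ± 0.0417 in KO lungs. For Ube2l6 this ratio was 0.442 ± 0.117 and 0.305 ± 0.0547, for Herc6 0.118 ± 0.0330 and 0.0712 ± 0.0109, and for Usp18 0.187 ± 0.0751 and 0.133 ± 0.0195. The means of all 4 ratios were thus lower in KO lungs, and Herc6 was the only one of these enzymes whose groups did not overlap (WT 0.0856 to 0.152, KO 0.0591 to 0.0800). Over the 8 ratios to Isg15, exact permutation tests gave p = 0.1 for Herc6, which is the smallest possible, and 0.2 to 1 for the others (adjusted p = 0.4 at the lowest). No ratio could have passed at 0.05 in this design, so these tests do not say whether Isg15 moved further than the other genes. In KO lungs the ratio of Ifit3 to Isg15 varied little, at 0.538, 0.506 and 0.535, while it ran from 0.370 to 0.808 in WT lungs. Every other ratio to Isg15 also had a smaller SD in KO lungs, for example Ifit3b (0.213 in WT and 0.0184 in KO).

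**Figure D3:**
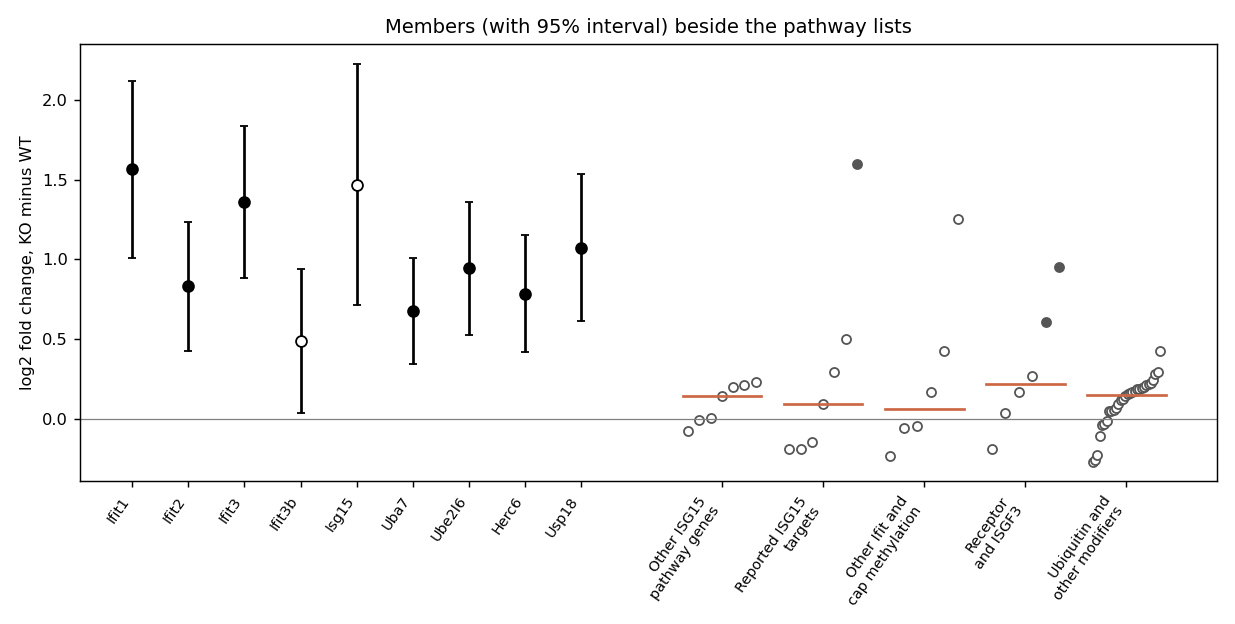
Log2 fold changes (KO minus WT) of the 9 genes with 95% intervals, and of the genes of 5 related lists, with an orange line at each list's median. Filled symbols passed the edgeR test at an adjusted p of 0.05. Of the 55 genes in the lists 3 did so, all of them higher in KO (Jak1 stands in 2 lists). Over all genes tested, 1.12% were called higher.

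Some genes of type I interferon signalling were also called higher. Of 6 genes of the type I interferon receptor and of ISGF3, 2 rose (1.12% over all genes) and 4 did not pass (median log2 fold change 0.22). Those that rose encode subunits of ISGF3. Stat2 was at 78.4, 66.8 and 79.2 CPM in WT and 123.3, 143.6 and 167.7 CPM in KO replicates 1 to 3, with no overlap. Stat2 and Irf9 rose by 0.95 ± 0.13 (edgeR adjusted p = 0.00482) and 0.61 ± 0.13 (adjusted p = 0.0416) on the log2 scale. With each library left out in turn, Stat2 was called every time, whereas Irf9 was called only without KO replicate 1. The receptor genes Ifnar1 (0.04 ± 0.11) and Ifnar2 (0.27 ± 0.14) and the kinase genes Jak1 (−0.19 ± 0.10) and Tyk2 (0.17 ± 0.14) did not pass.

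Other genes of the ISG15 pathway did not pass. Of 7 such genes, 0 were called by edgeR (1.45% over all genes), DESeq2 or limma-voom. At that share, 0 among 7 does not set them apart from other genes. An unadjusted p under 0.05 was reached by 0 of them, and their median log2 fold change was 0.14. They include Trim25 (0.14 ± 0.11) and Arih1 (−0.08 ± 0.11), ubiquitin ligases also reported to attach ISG15, the protease gene Usp21 (0.23 ± 0.18), and Itgal (0.20 ± 0.15) and Itgb2 (0.21 ± 0.16), which encode LFA-1, a receptor for secreted ISG15. Of 7 genes whose proteins have been reported to carry ISG15, Mx1 rose (1.12% over all genes) and 6 did not pass by edgeR. At an unadjusted p under 0.05, 3 were higher, and the median log2 fold change of the list was 0.09. Limma-voom called 1 gene of this list and DESeq2 called 2. Mx1, an antiviral dynamin-like GTPase, rose from 3.78 ± 2.09 to 11.4 ± 1.92 CPM (log2 fold change 1.60 ± 0.36, edgeR adjusted p = 0.0451), and it did not pass when replicate 2 or 3 of either group was left out (adjusted p 0.089 to 0.177). For Eif2ak2, the RNA-activated kinase PKR, the groups differed by 0.50 ± 0.14 (edgeR adjusted p = 0.101), and it passed by DESeq2 (adjusted p = 0.0451) and by edgeR without a filter on low counts (adjusted p = 0.0268). Ddx58 differed by 0.29 ± 0.12 (edgeR adjusted p = 0.287) and Irf3 by 0.09 ± 0.16.

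Among 30 genes of ubiquitin, other ubiquitin-like modifiers and their enzymes, 0 were called by edgeR (1.45% over all genes), DESeq2 or limma-voom. At an unadjusted p under 0.05, 1 was higher and 2 were lower, and the median log2 fold change was 0.15, in a range from −0.27 to 0.43. These are the close relatives of the ISG15 genes. With 1.45% called over all genes, 0 among 30 does not set them apart from other genes. Uba1, which activates ubiquitin as Uba7 does ISG15, was at 306.1 ± 9.08 and 297.4 ± 9.76 CPM (log2 difference −0.04 ± 0.10). Ube2l3, the relative of Ube2l6, differed by 0.29 ± 0.15 (adjusted p = 0.406), and the Herc genes Herc1 to Herc4 by −0.27 to 0.21. The smallest p-values in the list were those of Ube2m (0.43 ± 0.14, adjusted p = 0.158), Herc2 (−0.27 ± 0.11) and Herc1 (−0.26 ± 0.12).

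The Ifit cluster holds 2 other family members, which were not called. Ifit1bl1 was at 2.98 ± 0.270 and 2.53 ± 0.757 CPM and Ifit1bl2 at 2.95 ± 2.11 and 2.84 ± 1.20 CPM in WT and KO lungs. Ifit1bl2 is read from the opposite strand, and its nearer RefSeq start lies 146 bases from that of Ifit1, with both Ifit1 matches to the ISRE core between the 2 starts. Both genes are counted in a list of 6 with 4 genes of mRNA cap methylation. In that list 0 were called by edgeR (1.45% over all genes), DESeq2 or limma-voom. At that share, 0 among 6 does not set the list apart from other genes. At an unadjusted p under 0.05, 2 were higher. These were Cmtr1, the cap 2′-O-methyltransferase (1.63 ± 0.689 and 3.92 ± 0.228 CPM, log2 difference 1.26 ± 0.46, adjusted p = 0.218), and Rnmt, the cap guanine methyltransferase (0.43 ± 0.19, adjusted p = 0.314).

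The nearest tested protein-coding genes on either side were not called either. Of 14 such neighbours, Ifit1bl1 and Ifit1bl2 included, 0 were called by edgeR (1.45% over all genes), DESeq2 or limma-voom. An unadjusted p under 0.05 was reached by 0 of them. At that share of calls, 0 among 14 genes does not set the neighbours apart from other genes. On either side of the Ifit cluster, the lysosomal lipase gene Lipa differed by −0.05 ± 0.15 and Slc16a12 by −0.60 ± 0.31 (adjusted p = 0.396). Agrn, which lies 1936 bases from Isg15, differed by −0.22 ± 0.12, and AW011738 on the other side by 0.27 ± 0.23. Klrg1, the nearest tested gene on one side of Usp18, lies 999679 bases away, and the other neighbours lie within 45532 bases.

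Of all other genes tested, the 6 whose log2 CPM relative to WT was nearest to the mean of the 9 over the 6 libraries were Cd52, H2-T10, Lgals3bp, H2-Aa, Cd74 and Gm12918. Their root mean square distances were 0.0765 to 0.102 log2 units, while those of the 9 genes themselves ran from 0.104 (Usp18) to 0.451 (Isg15). Lgals3bp, a secreted glycoprotein, was at 124.8, 106.7 and 123.3 CPM in WT and 184.3, 252.6 and 281.6 CPM in KO replicates 1 to 3. H2-Aa, an MHC class II chain, was at 36.4, 31.2 and 42.3 CPM and 54.6, 77.9 and 100.4 CPM. The 6 were picked for their likeness over the same libraries, so their higher KO levels and the order of the KO libraries follow from the choice. The edgeR adjusted p of Gm12918 was 0.269.

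**Figure D4:**
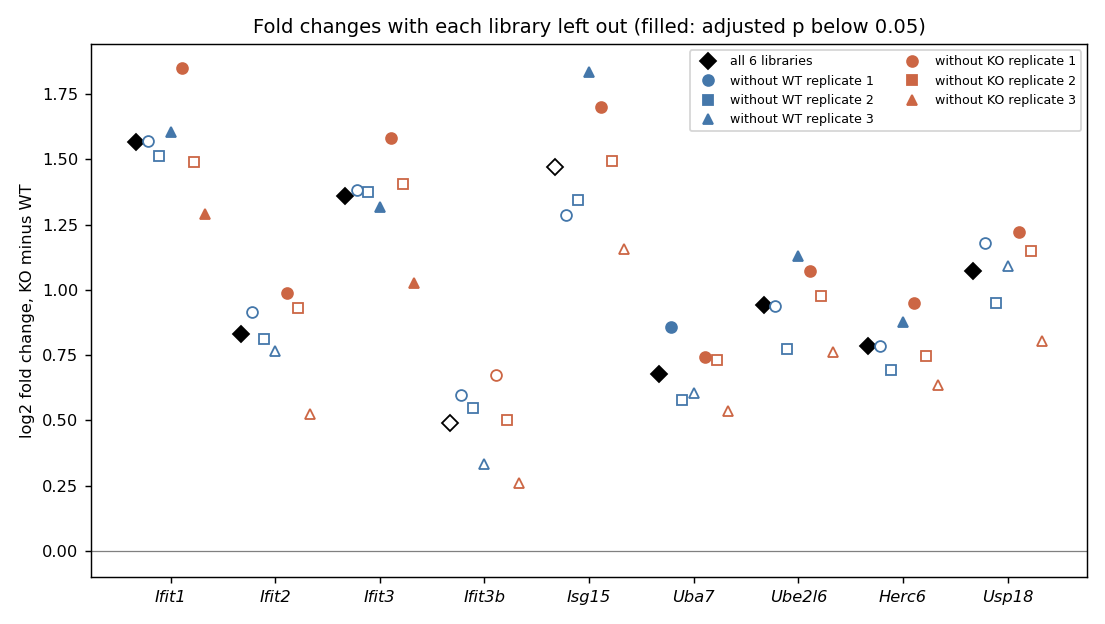
Log2 fold changes (KO minus WT) of the 9 genes with all 6 libraries (black) and with each library left out in turn (blue for a WT, orange for a KO library), filled where the edgeR adjusted p was below 0.05. All values lie above 0, from 0.26 (Ifit3b) to 1.85 (Ifit1), and each of the 7 calls is lost in at least 1 setting.

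All 9 log2 differences stayed positive with each library left out, but the number of calls changed. Without WT replicates 1, 2 and 3, 1, 0 and 5 of the 9 genes were called higher by edgeR, and without KO replicates 1, 2 and 3, 8, 0 and 2. At an unadjusted p under 0.05 these were 9, 9 and 8, and 9, 8 and 8 genes. Over all genes the same fits called 28, 22 and 188, and 404, 23 and 36 genes higher by adjusted p. With all 6 libraries, 2221 of 15191 genes had an unadjusted p under 0.05 in either direction. Each call among the 9 was lost without WT replicate 2 and without KO replicate 2. Ifit1 and Ifit3 were the genes called without KO replicate 3, and Uba7 the gene called without WT replicate 1.

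Some markers of leukocytes were also higher in KO lungs. Of all genes tested, 1.12% were called higher and 0.336% lower by edgeR. Over 5 pan-leukocyte markers the summed level was 1290 to 1690 CPM in WT and 1660 to 2160 CPM in KO libraries, which overlap, and 2 of the 5 rose (Coro1a and Cd53). Over 5 monocyte markers it was 192 to 204 CPM in WT and 261, 314 and 375 CPM in KO replicates 1 to 3, and 3 of the 5 rose (Ly6c2, Ccr2 and Fcgr1). This is the order of the KO libraries in the 9 genes. The summed neutrophil, plasmacytoid dendritic cell and fibroblast markers had the same order, so it was not particular to monocyte markers. Plasmacytoid dendritic cell markers summed to 305 to 324 and 404 to 427 CPM (2 of 5 rose). Bst2, which is itself induced by interferon, made up most of that difference (61.5 ± 11.1 and 150 ± 18.7 CPM). Neutrophil markers summed to 77.3 to 156 and 158 to 230 CPM (1 of 4 tested rose, and Ly6g had no count in WT lungs). T cell markers (63.2 to 94.7 and 90.2 to 129 CPM) and NK cell markers (30.2 to 100 and 67.1 to 70.7 CPM) overlapped between groups, with 0 of 5 called in each by edgeR. B cell markers summed to 95.9 to 148 and 156 to 218 CPM, also with 0 of 5 called, and alveolar macrophage markers to 322 to 524 and 495 to 658 CPM, which overlap, with 0 of 6. Platelet markers were lower in KO libraries (46.7 to 71.5 and 13.3 to 25.3 CPM, 1 of 5 called). Fibroblast markers summed to 2080 to 2290 and 1540 to 2110 CPM, which overlap, and 1 of the 5 fell (Pdgfra, log2 fold change −0.46, edgeR adjusted p = 0.0485). Endothelial markers (4680 to 5880 and 4380 to 5530 CPM) and erythroid markers (162 to 192 and 156 to 332 CPM) overlapped too, with 0 of 5 called in each. Lung epithelial markers were high in every library (13400 to 14700 and 13800 to 17200 CPM, 0 of 7 called). Among them Scgb1a1 was higher in every KO than in every WT library, and the others overlapped. Its log2 difference was 2.06 ± 0.50 and did not pass (edgeR adjusted p = 0.158). The 6 markers of the mammary tumour epithelium, which lung epithelium shares in part, summed to 361 to 415 and 407 to 431 CPM. Their part in the result was not tested.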

How the data were processed

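Per the submitters' processing notes, the authors used STAR and HTSeq 0.6.1. The series' design text adds that the reads were paired and the build mm10 (GRCm38). The deposited values are raw read counts per Ensembl gene, 1 table per library. The sources used here do not give the annotation release, strand setting or counting mode, so reads of overlapping or near-identical genes may be split or lost. Exons of Uba7 share 233 bases with Gm20661, those of Herc6 1269 bases (13.7%) with Gm45193 on the same strand, and those of Usp18 124 bases with the antisense RNA Gm44148. The deposited counts include Gm20661 but neither Gm45193 nor Gm44148.

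Symbols, positions and exonic lengths came from GENCODE M21 (GRCm38) by identifier (34490 of 35275 rows matched). KO was compared with WT by edgeR 4.0.16 in R 4.3.3 (quasi-likelihood F-test, TMM, filterByExpr with a minimum count of 10, robust=TRUE, group alone, two-sided), with Benjamini-Hochberg adjustment over 15191 genes and a threshold of 0.05. All 9 genes passed the filter. SE is the absolute log2 fold change over the square root of F. The p-values measure the spread between these libraries, which may be technical. A count of 0 allows up to 0.176 to 0.206 CPM (3 counts), counting error only. On simulated counts the test recovered 32.3%, 73.1% and 89.9% of genes changed 1.5-fold, 2-fold and 3-fold, and 6.47% of calls were false.

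Members, lists and tests were chosen with earlier results of these data known. The text names the 9 genes, list genes that passed or otherwise up to 3 with the smallest p, the 6 genes nearest in pattern (prior count 1 for log2 CPM) and the nearest neighbours. Trim25, Arih1, Itgal, Itgb2, Irf3, Ifnar1, Ifnar2, Jak1, Tyk2, Uba1, Ube2l3 and the other Herc genes were named for their roles. A listed gene is not reported here. Alternatives were other scalings and filters, DESeq2 1.42.0, limma-voom (limma 3.58.1), robust=FALSE, other thresholds, each library left out, the replicate number as a block, and Ifit3 and Ifit3b summed.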

Additional observations from a re-analysis of the deposited data

How the results depend on the processing

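The 9 genes were higher in KO under every alternative run. Between 5 and 8 of them were called under other scalings, other filters, DESeq2, limma-voom, robust=FALSE and an adjusted p of 0.1, and 7 of 8 with Ifit3 and Ifit3b summed. At an adjusted p of 0.01, 0 were called and 1 of the 55 list genes (Stat2), and against a minimum fold of 1.5 (glmTreat) 0 and 0. With 1 library left out, 0 to 8 of the 9 and 1 to 3 of the list genes were called. Uba7 missed the threshold with RLE factors (adjusted p = 0.0517), upper-quartile scaling (0.053) and robust=FALSE (0.0555), Herc6 by limma-voom (0.0506), and Ifit2 with upper-quartile scaling (0.0513), the 1 CPM filter (0.0509), limma-voom (0.0659) and robust=FALSE (0.0524), while Isg15 passed with robust=FALSE (0.0202) and without a filter. The log2 ratio to Isg15 changed sign for Ifit1 (0.01, range −0.25 to 0.21, at −0.25 without WT replicate 3 and −0.10 without KO replicate 2) and Ifit3 (−0.18, range −0.52 to 0.04, at 0.0419 without WT replicate 1). Over all genes, 170 were higher, but 578 without a filter, 370 by DESeq2, 23 at 0.01, 315 at 0.1, 1 by glmTreat and 22 to 404 with 1 library left out. The cause was not tested. Correlations of deviations from the group mean were −0.03 to 0.02 for equal replicate numbers and −0.05 to 0.04 for unequal ones. They show no pairing by number, but rest on 3 libraries per group. With the replicate block 8 of the 9, 3 list genes and 309 of all genes were called higher, and Isg15 passed (1.47, adjusted p = 0.000124).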

Other observations

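Matches to the ISRE core in the promoter window were counted over all called genes as a description. Of 120 genes that were higher in KO lungs and had a window, 23.3% held a match, against 5.26% of 38 lower genes and 3.69% of 11227 genes that were not called. For TTCNNNGAA the shares were 14.2%, 7.89% and 8.27%. No test of these shares was made.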
